A study of Rattus norvegicus with 9 samples.

Results

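The natriuretic peptide system was followed through 6 genes, picked by name: the peptide genes Nppa and Nppb, the convertase gene Corin, and the receptor genes Npr1, Npr2 and Npr3. They are 6 of the 17337 genes in the count table, and all 6 passed the filter on low counts. RNA was sequenced from cultured cardiac fibroblasts of Sprague Dawley rats at 3 ages, fetal (E18), neonatal (P1) and adult (7 weeks), with 3 libraries each. Per the labels, every library came from passage 0 cells, grown until confluent in DMEM with 10% fetal bovine serum, 0.1 mM ascorbic acid and 1% Penicillin/Streptomycin, and the labels name no genetic change, treatment or sort. They do not say whether the libraries of an age came from separate animals or litters, so p-values measure the spread between these libraries, which may be technical.

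Nppa encodes atrial natriuretic peptide (ANP) and Nppb encodes brain natriuretic peptide (BNP), hormones that the heart's muscle cells release and that lower blood pressure and promote salt excretion. Both are made in the fetal ventricle and atrium, and after birth Nppa becomes largely atrial. Corin is a membrane-bound serine protease that cuts pro-ANP to its active form. Npr1 is the receptor guanylate cyclase for ANP and BNP, Npr2 is the receptor guanylate cyclase for C-type natriuretic peptide, and Npr3 is the clearance receptor, which takes the peptides up and has no cyclase domain. In fibroblasts, cGMP made by these cyclases is known for restraining growth and matrix production.

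In the rn6 annotation used for counting, Nppb and Nppa lie next to each other on the plus strand of chromosome 5. Nppb runs from chr5:164796229-164797531 and Nppa from chr5:164808407-164809716, with 10875 bases and no other gene's exons between them. Npr2 is at chr5:59128903-59147311, Npr1 at chr2:189840403-189856090, Npr3 at chr2:61889053-61949706 and Corin at chr14:38247940-38473729. No other gene's exons overlap those of the 6 genes, and the counts are sums over exons.

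The sequences before the starts of the neighbouring peptide genes are shown because these genes had the largest age differences of the 6. They are the 250 bases before each RefSeq gene start on GRCr8, both plus strand, 5′ to 3′. The Nppa stretch is chr5:163711934-163712183 and the Nppb stretch is chr5:163699758-163700007. Capitals mark matches to 4 of the motifs searched.
Nppa: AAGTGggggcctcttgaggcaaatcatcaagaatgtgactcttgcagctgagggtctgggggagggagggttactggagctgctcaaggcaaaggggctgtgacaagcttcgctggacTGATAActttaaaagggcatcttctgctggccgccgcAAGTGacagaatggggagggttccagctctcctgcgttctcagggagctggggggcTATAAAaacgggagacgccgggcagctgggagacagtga
Nppb: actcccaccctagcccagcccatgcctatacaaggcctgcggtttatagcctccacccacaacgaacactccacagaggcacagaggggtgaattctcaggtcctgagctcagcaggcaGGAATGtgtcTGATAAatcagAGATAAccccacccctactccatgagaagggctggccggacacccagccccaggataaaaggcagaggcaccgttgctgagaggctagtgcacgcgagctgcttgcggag
The motifs were a GATA motif in 4 forms, of which the first is AGATAA, the second is spelled AGATAG, the third is spelled TGATAA and the last is spelled TGATAG, the M-CAT element (CATTCC), an NKX2-5 core (AAGTG), a T-box core (AGGTGT) and the CArG box, all on both strands, and TATAAA on the gene's strand. The Nppa stretch held 1 GATA match (TGATAA, 132 to 127 bases before the start), 2 NKX2-5 cores (from 250 to 246 and from 95 to 91 bases before it) and TATAAA from 39 to 34 bases before it. The Nppb stretch held 2 GATA matches, TGATAA from 121 to 116 and AGATAA from 110 to 105 bases before the start, and 1 M-CAT match, read as GGAATG from 131 to 126 bases before it. No marked matches overlapped.

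Such letters are common. Of 33469 rat promoters of the same length, 27.0% held a GATA match, 40.6% an NKX2-5 core, 12.1% an M-CAT match, 11.6% a T-box core, 8.06% TATAAA and 1.5% a CArG box. In the stretch before Npr3 there was 1 GATA match, CTATCT from 143 to 138 bases before the start, and the stretches before Npr1 and Corin held no match to the 6 motifs. The promoter table matched 5 of the 6 genes, all but Npr2. A match describes the letters and does not show that a factor binds.

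The libraries held 13392825 to 22850491 counts assigned to genes, and the adult libraries 13392825 to 13810825 of them. Levels are given as CPM, counts per 1000000 counts of the library after TMM scaling (a correction for makeup), and per kilobase (kb) of exon where genes are compared with each other. Fetal replicate 3 stood apart from the other fetal libraries: the chi-square per degree of freedom of its counts against theirs was 90.0 and 97.3, and 3.94 between those 2. Adult replicate 1 stood apart to a lesser degree, at 25.8 and 43.0 against the other adult libraries and 6.76 between those. The neonatal libraries were the most alike, at 2.52, 2.76 and 2.05 between pairs. In fetal replicate 3 the 10 fibroblast markers summed to 23654 CPM, against 47658 and 50437 in the other fetal libraries, 67927 to 74193 in neonatal and 22236 to 29822 in adult libraries. All 10 had counts in all 9 libraries, although Col1a2 had only 1 to 21 in each. Col1a1 and Col3a1 made up most of these sums. Pdgfra and Postn went the other way. In fetal replicate 3 Pdgfra was at 151 CPM against 106 and 109, and Postn at 1104 against 891 and 927. Tcf21, Dcn, Lum and Thy1 spread widely over the fetal libraries, with 130 to 327, 360 to 1539, 866 to 3715 and 815 to 2078 counts. In adult against fetal libraries 4 of the 10 (Pdgfra, Tcf21, Dcn and Thy1) were called higher and 3 (Col1a1, Lum and Ddr2) lower. Transcripts that mark other cell types were present: 13 cardiomyocyte markers summed to 9264 to 11442 CPM in fetal, 5042 to 5544 in neonatal and 307 to 322 in adult libraries. The 12 macrophage markers summed to 15 to 70.8, 166 to 183 and 4182 to 5845 CPM at the 3 ages, with Cd163 at 0 in all fetal and neonatal libraries. In such bulk samples, fewer cells of a type and less RNA per cell cannot be told apart.

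The 2 peptide genes and Corin were counted in all fetal and neonatal libraries and gave few or no counts in adult ones, whereas Npr1 was highest in adult cultures. The other receptors moved less: Npr2 was called only between neonatal and fetal cultures and Npr3 only between adult and fetal ones. A gene was called at an adjusted p under 0.05 (edgeR's quasi-likelihood test, Benjamini-Hochberg over all 11337 genes tested). Between neonatal and fetal libraries 2 of the 6 genes were called, 1 in each direction, where 36.3% of all genes were (18.3% higher and 18.0% lower in neonatal libraries). Between adult and neonatal libraries 4 of 6 were called, 1 higher and 3 lower in adult ones, against 63.5% of all genes (31.6% higher and 31.8% lower). Between adult and fetal libraries 5 of 6 were called, 1 higher and 4 lower in adult ones, against 70.5% of all genes (34.9% higher and 35.5% lower). These shares are near the background, so the counts are no result about the 6 genes. Their median absolute log2 fold change was 0.64, 3.47 and 4.28 in these 3 comparisons, where that of all genes was 0.29, 0.52 and 0.63. The 6 genes were chosen with earlier results of these data known, so these sizes only describe them. Both adult medians also depend on the Corin fold, which rests on 1 adult count. The 3 comparisons share libraries and are not independent of each other.

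**Figure D1:**
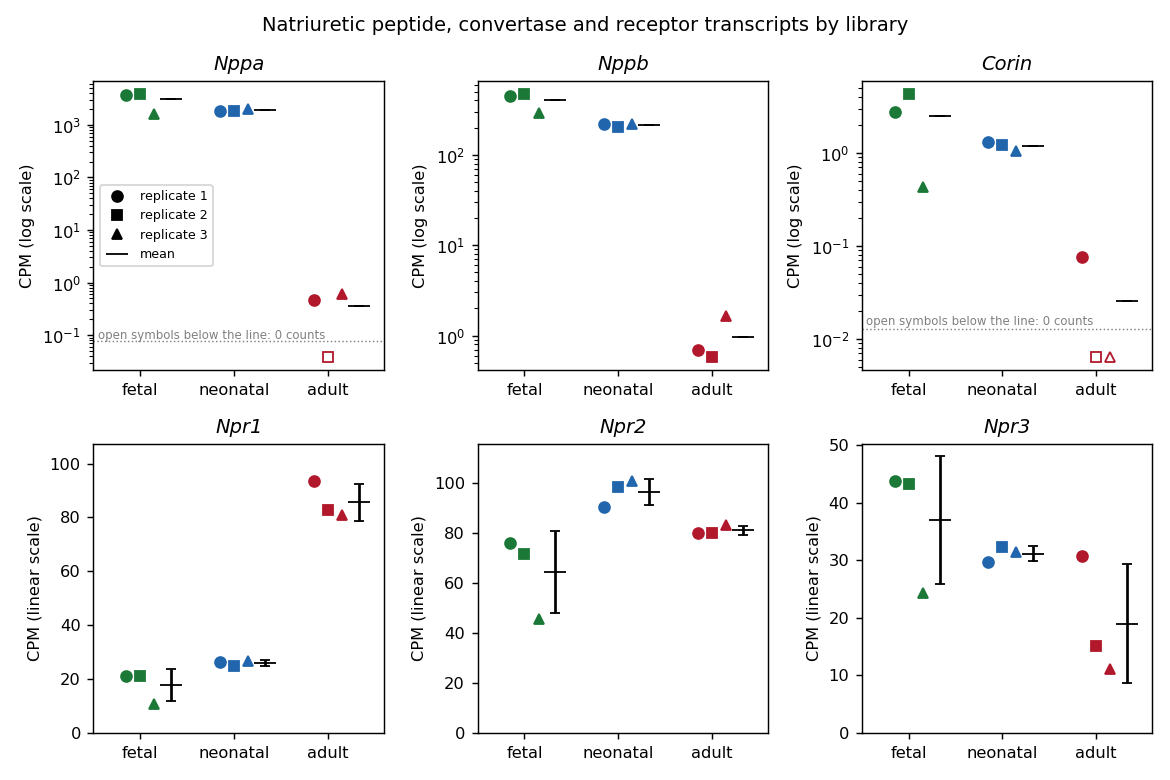
CPM of each gene in each of the 9 libraries; the peptide genes and Corin are on log axes and the receptors on linear axes. Bars give the mean over 3 libraries, with the SD in the receptor panels only, and open symbols stand for libraries with 0 counts. Nppa and Nppb are at least 205 CPM in every fetal and neonatal library and at most 1.65 CPM in the adult ones, while Npr1 is at 80.8 CPM or more in every adult library and at most 26.7 CPM elsewhere.

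Nppa was at 3685, 3833 and 1607 CPM in fetal replicates 1, 2 and 3, and at 1796, 1831 and 2008 CPM in the neonatal replicates. In the adult replicates it had 6, 0 and 8 counts, or 0.459, 0 and 0.599 CPM. The adult libraries thus lay far below all others, and the neonatal ones lay between fetal replicate 3 and the other 2 fetal libraries. Counts pooled over an age and scaled by depth were 8884 times higher in fetal than in adult cultures (exact 95% interval 5295 to 16250, counting error only). The neonatal to adult ratio was 5376 (3204 to 9833). On the fitted log2 scale Nppa fell by 12.37 ± 0.61 (SE) from neonatal to adult and by 13.06 ± 0.62 from fetal to adult libraries (edgeR, adjusted p = 6.16e-07 and 2.57e-07). These sizes moved with single adult libraries, to -11.77 and -12.47 without adult replicate 2 and to -12.99 and -13.69 without adult replicate 3.

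The neonatal to fetal difference of Nppa was -0.70 ± 0.34 on the log2 scale, with adjusted p = 0.135 by edgeR. It rested on fetal replicate 3: without that library it was -1.0, with adjusted p = 0.00172 by edgeR. Among genes ranked by CPM per kb, Nppa was 4th, 3rd and 10th in fetal replicates 1, 2 and 3 and 12th, 12th and 10th in the neonatal ones. It took 0.186% to 0.393% of all counts in fetal and 0.171% to 0.191% in neonatal libraries. In adult replicates 1 and 3 its rank was 10430 and 10190, of 12297 and 12248 genes with any count.

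Nppb was at 444, 470 and 289 CPM in the fetal, 217, 205 and 222 CPM in the neonatal and 0.689, 0.578 and 1.65 CPM in the adult replicates. No age overlapped another, and fetal replicate 3 was again the lowest fetal library. Nppb fell by 0.90 ± 0.21 (SE) on the log2 scale from fetal to neonatal libraries (edgeR, adjusted p = 0.00981). From neonatal to adult libraries it fell by 7.78 ± 0.32, and from fetal to adult ones it fell by 8.68 ± 0.32 (edgeR, adjusted p = 1.62e-07 and 5.32e-08). Without adult replicate 3 these were -8.39 and -9.29. The adult libraries held 9, 8 and 22 Nppb counts, so that the pooled fetal to adult ratio was 418 (exact 95% interval 306 to 588) and the neonatal to adult ratio 221 (161 to 311).

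The peptide genes did not fall in proportion. The log2 ratio of Nppa to Nppb per kb, with 0.5 counts added to each, averaged 2.48 ± 0.33 (SD, n = 3) over the fetal libraries, 2.75 ± 0.07 over the neonatal and -2.39 ± 1.85 over the adult ones. Nppa was thus the more abundant transcript at the 2 early ages and Nppb in every adult library. The ages differed (exact permutation test over 1680 assignments of the 9 libraries, p = 0.00714, adjusted p = 0.0119 over 5 ratios). Adult counts set the size: with 5 counts added the adult minus fetal difference was -3.78 in place of -4.87. For any 2 ages 3 libraries against 3 cannot give a p below 0.1.

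Corin, the pro-ANP convertase, had 51, 97 and 8 counts in the fetal, 24, 26 and 16 in the neonatal and 1, 0 and 0 in the adult replicates. These are 2.75, 4.28 and 0.425 CPM, then 1.32, 1.21 and 1.04 CPM, then 0.0765, 0 and 0 CPM. Every fetal and neonatal library exceeded every adult one, and fetal replicate 3 lay below the neonatal libraries. Pooled counts were 105 times higher in fetal than in adult cultures (exact 95% interval 18.5 to 4160) and 48.2 times higher in neonatal than in adult ones (8.36 to 1932), both resting on 1 adult count, in adult replicate 1. Corin was called lower in adult libraries against both earlier ages (edgeR, adjusted p = 0.00617 against neonatal and 0.00108 against fetal). Neonatal minus fetal was -1.07 ± 0.64 on the log2 scale and not called (edgeR, adjusted p = 0.217). Without fetal replicate 3 it was -1.56 and was called (edgeR, adjusted p = 0.00192).

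Npr1, the ANP and BNP receptor, was at 21.2, 21.2 and 10.8 CPM in the fetal, 26.5, 24.8 and 26.7 CPM in the neonatal and 93.4, 82.7 and 80.8 CPM in the adult replicates. No age overlapped another. Npr1 was 4.82-fold higher in adult than in fetal libraries, a log2 fold change of 2.27 ± 0.22 (SE), and 3.30-fold higher than in neonatal ones, 1.72 ± 0.21 (edgeR, adjusted p = 1.61e-05 and 0.000115). The neonatal to fetal difference, 0.55 ± 0.22, was not called (edgeR, adjusted p = 0.0761). Without fetal replicate 3 it was smaller, at 0.29, and was called (edgeR, adjusted p = 0.015).

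Macrophage markers and part of the endothelial ones moved with Npr1. The 12 macrophage markers were all called higher in adult libraries against both earlier ages. Of 9 endothelial and endocardial markers tested, 6 were called higher and 2 lower in adult than in neonatal libraries, and the 10 in the table summed to 33.7 to 57.4 CPM in fetal, 44.8 to 52.8 in neonatal and 131 to 143 in adult libraries. Among these Tie1 was at a mean of 70.4 CPM in adult libraries, a large part of the adult sum, while the defining endothelial genes Pecam1 and Cdh5 were at 7.16 and 4.23 CPM. The 2 called lower were Kdr, at 5.55 CPM in neonatal and 0.901 in adult libraries, and Tek, at 8.84 and 5.31. The part of macrophages and endothelial cells in the Npr1 difference was not tested.

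Npr2, the C-type peptide receptor, was at 75.9, 71.6 and 45.6 CPM in the fetal, 90.3, 98.1 and 100.5 CPM in the neonatal and 80.0, 79.9 and 83.0 CPM in the adult replicates. The 3 neonatal libraries were the highest and did not overlap either other age. Npr2 rose by 0.58 ± 0.16 (SE) on the log2 scale from fetal to neonatal libraries (edgeR, adjusted p = 0.0213). That call was lost without neonatal replicate 2 (0.57) or 3 (0.56), at adjusted p = 0.0653 and 0.0666 by edgeR. Adult minus neonatal was -0.25 ± 0.16 and adult minus fetal 0.33 ± 0.16, neither of them called (edgeR, adjusted p = 0.202 and 0.0929). The former was called at -0.25 without fetal replicate 3 (edgeR, adjusted p = 0.00207) and the latter at 0.45 without fetal replicate 1 (edgeR, adjusted p = 0.0371).

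Npr3, the clearance receptor, was at 43.7, 43.2 and 24.2 CPM in the fetal, 29.8, 32.3 and 31.4 CPM in the neonatal and 30.7, 15.2 and 11.2 CPM in the adult replicates. Fetal replicate 3 lay below the neonatal libraries and adult replicate 1 among them, so each age overlapped both others. Npr3 was called lower in adult than in fetal libraries by -0.96 ± 0.35 (SE) on the log2 scale (edgeR, adjusted p = 0.035). It was not called between neighbouring ages, at -0.25 ± 0.34 and -0.71 ± 0.35 (edgeR, adjusted p = 0.591 and 0.108). The adult to fetal call was lost without fetal replicate 1 or 2, neonatal replicate 2 or 3 or adult replicate 2 or 3, with values from -0.97 to -0.69. Without adult replicate 1 the adult to neonatal difference was -1.24 and was called (edgeR, adjusted p = 0.00417). Over all 3 ages at once 5 of the 6 genes differed, all but Npr3 (edgeR, adjusted p = 0.0776), as did 77.6% of all genes. With 1 library left out, 4 to 6 of the 6 genes differed in that test.

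**Figure D2:**
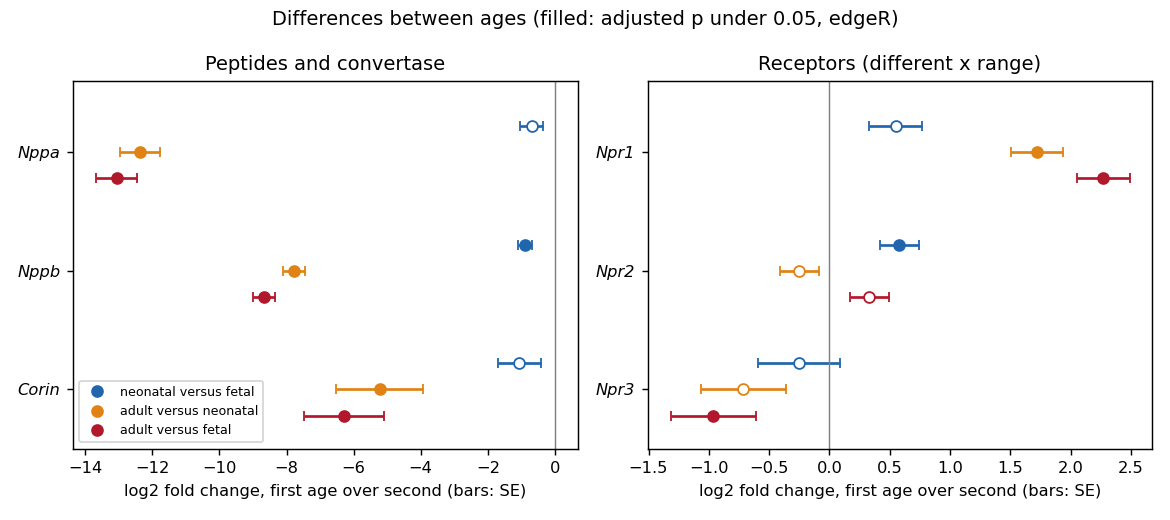
Log2 fold change of each gene between each pair of ages, first age over second, with its SE as bars; filled symbols passed adjusted p under 0.05 by edgeR and open ones did not. The peptide and convertase panel reaches -13.06, the Nppa value between adult and fetal libraries, and the receptor panel 2.27, the Npr1 value for the same ages.

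The receptors changed places with age. In shares of the summed receptor counts per kb, Npr1 made up 9.67% ± 0.707 (SD, n = 3), 12.2% ± 0.798 and 38.1% ± 1.92 at the fetal, neonatal and adult ages. Npr2 made up 42.1% ± 1.76, 53.1% ± 0.828 and 42.6% ± 5.88. Npr3, the receptor without a cyclase, made up 48.3% ± 1.07, 34.7% ± 0.685 and 19.2% ± 7.79. Npr1 thus had its largest share in all 3 adult libraries and Npr3 in all 3 fetal ones, fetal replicate 3 included.

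Within-library ratios, which need no scaling between libraries, gave the size of this shift. The log2 ratio of Npr3 to Npr1 per kb was 2.32 ± 0.08, 1.5 ± 0.11 and -1.06 ± 0.64 at the fetal, neonatal and adult ages (exact permutation test over the 3 ages, p = 0.00357, the smallest it can give, adjusted p = 0.0119 over 5 ratios). No library overlapped those of another age, and Npr3 was the more abundant of the 2 in fetal and neonatal libraries and Npr1 in adult ones. The log2 ratio of Npr2 to Npr1 was 2.12 ± 0.17, 2.12 ± 0.11 and 0.15 ± 0.13 (exact permutation test, p = 0.0357, adjusted p = 0.0357 over 5 ratios). Fetal and neonatal libraries differed in this ratio by -0.003, less than the spread within either age.

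**Figure D3:**
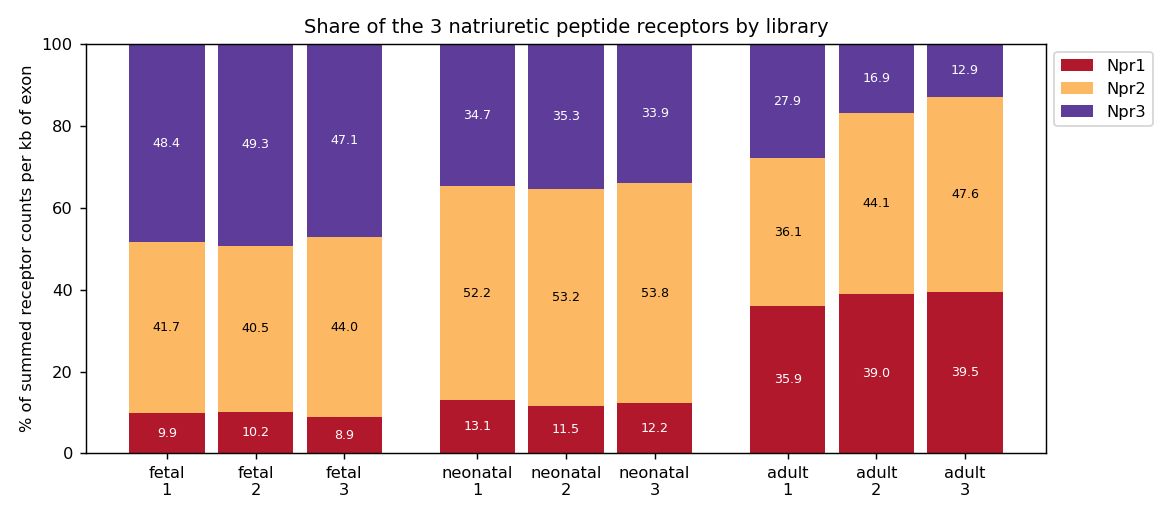
Stacked bars give the percentage of the summed counts per kb of the 3 receptors that each receptor took in each library. Npr1 lies near 9.67% in fetal and 38.1% in adult libraries, and Npr3 goes from 48.3% to 19.2%, with adult replicate 1 at 27.9% and the other adult libraries at 16.9% and 12.9%.

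Per kb of exon, the order of the 6 genes was the same in the 3 libraries of each age. In fetal libraries it ran from Nppa (3736 ± 1529 CPM per kb) through Nppb (638 ± 155), Npr3 (21.5 ± 6.45), Npr2 (18.6 ± 4.73) and Npr1 (4.36 ± 1.48) to Corin (0.683 ± 0.533). In neonatal libraries Npr2 (27.8 ± 1.54) stood above Npr3 (18.1 ± 0.73). In adult libraries Npr2 (23.3 ± 0.513), Npr1 (21.0 ± 1.66) and Npr3 (11 ± 6.0) stood above Nppb (1.55 ± 0.937), Nppa (0.433 ± 0.385) and Corin (0.00701 ± 0.0121). Neighbours whose SD ranges overlapped were Npr3 and Npr2 in fetal libraries and Nppb and Nppa in adult ones. In adult replicate 2 both Nppa and Corin had 0 counts.

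Cardiomyocyte transcripts moved with the peptide genes. All 13 cardiomyocyte markers were called lower in each of the 3 comparisons (neonatal against fetal, adult against neonatal and adult against fetal), with median log2 fold changes of -1.06, -8.70 and -9.54. Csrp3 had 0 counts in all adult libraries, and Myh6, Myh7 and Myl2 had at most 3 in each. Of the atrial markers Myl7, Myl4 and Sln, 2 were lower in neonatal than in fetal libraries and all 3 in adult than in earlier ones. The 4 atrial markers, Bmp10 included, summed to 97.1, 97.9 and 205 CPM in fetal replicates 1, 2 and 3. They summed to 43.5 to 47.3 CPM in neonatal and 4.19 to 7.12 CPM in adult libraries. Fetal replicate 3 was thus the highest fetal library in that sum, although it was the lowest in Nppa and Nppb. Cardiac troponin T (Tnnt2) differed from the rest: it gave 3959, 4294 and 4215 of the 4008, 4358 and 4299 cardiomyocyte marker counts in adult replicates 1, 2 and 3.

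Against these markers the peptide genes gave answers that depended on Tnnt2. The log2 ratio of Nppa counts to the summed counts of the 13 markers was -1.87 ± 0.57 (SD, n = 3), -1.49 ± 0.03 and -10.45 ± 2.29 at the fetal, neonatal and adult ages (exact permutation test over the 3 ages, p = 0.00714, adjusted p = 0.0119 over 5 ratios). For Nppb it was -4.72 ± 0.24, -4.62 ± 0.07 and -8.43 ± 0.75 (exact permutation test, p = 0.0286, adjusted p = 0.0357). Without Tnnt2, a choice made after seeing the data, the Nppa ratio was -1.47 ± 0.59, -0.95 ± 0.04 and -4.42 ± 2.25, still lowest in the adult libraries (exact permutation test, p = 0.00357, adjusted p = 0.00893). The Nppb ratio without Tnnt2 turned round, at -4.32 ± 0.26, -4.08 ± 0.10 and -2.40 ± 0.51, so that Nppb was higher against the other 12 markers in adult than in fetal libraries (exact permutation test, p = 0.00714, adjusted p = 0.00893). Both ratios without Tnnt2 rested on few adult counts: the 12 markers had 49, 64 and 84 in adult replicates 1, 2 and 3. Tnnc1 (19, 11 and 17) and Mybpc3 (13, 21 and 22) gave a large part of these, and Nppb itself had 9, 8 and 22. Neonatal minus fetal, the ratios to the 13 markers differed by 0.38 for Nppa and 0.11 for Nppb (exact permutation test, two-sided, p = 0.2 and 0.8, where 0.1 is the smallest possible). The part of cardiomyocyte RNA in the fall of the peptide genes was not tested beyond these ratios.

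**Figure D4:**
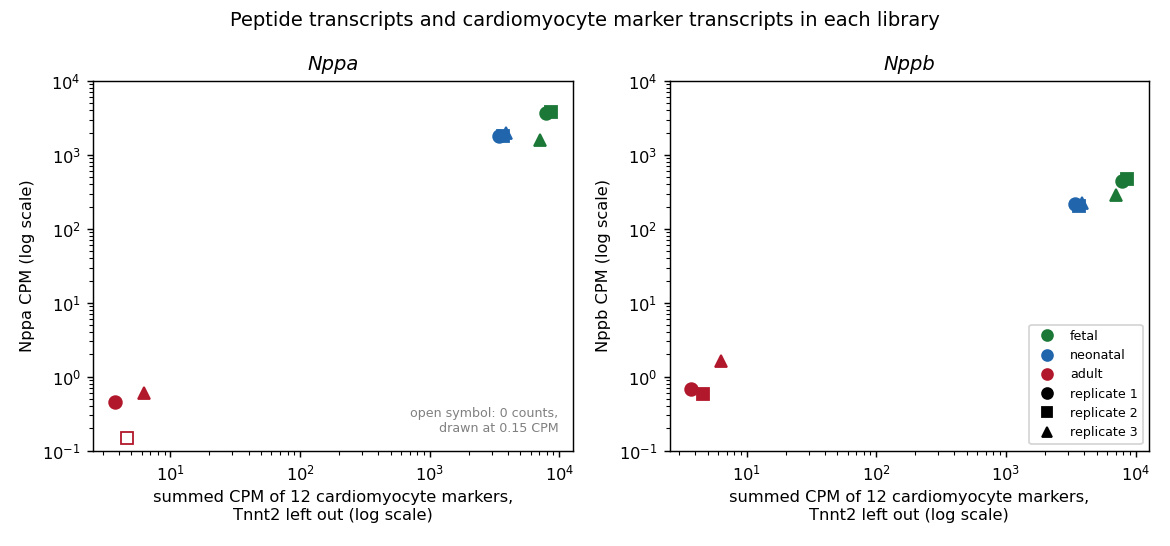
CPM of Nppa and Nppb in each library against the summed CPM of 12 cardiomyocyte markers, Tnnt2 left out, on log axes; the open symbol is the library with 0 Nppa counts. The marker sum is 7111 to 8598 CPM in fetal, 3402 to 3867 in neonatal and 3.75 to 6.29 in adult libraries, and both peptide genes are low where it is low. Fetal replicate 3 has a fetal marker sum with less Nppa and Nppb than the other fetal libraries.

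Outside the 6 genes, 49 genes of the pathway were in the table and 40 passed the filter. Of these, 8 were called higher and 9 lower in neonatal than in fetal libraries, 3 higher and 20 lower in adult than in neonatal ones, and 6 higher and 24 lower in adult than in fetal ones. Over all genes 18.3% were called higher and 18.0% lower in the first comparison, 31.6% and 31.8% in the second and 34.9% and 35.5% in the third. The median log2 fold changes of the 40 genes were 0.05, -0.73 and -0.79, where those of all genes were -0.01, -0.01 and -0.01.

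The third peptide gene, Nppc, whose product is the ligand of Npr2, was near the limit of detection, at 0.541 ± 0.481 CPM (SD, n = 3), 0.943 ± 0.149 and 1.80 ± 0.391 at the 3 ages, youngest first. It was called in no comparison. Adult minus fetal was 1.70 ± 0.69 (SE) on the log2 scale, with adjusted p = 0.0501 by edgeR, and it was called without fetal replicate 1 (2.24) or fetal replicate 3 (1.14). Adult minus neonatal, 0.92, was called without fetal replicate 3. Osteocrin (Ostn), a ligand of Npr3, had 0 counts in all 9 libraries.

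Of 7 genes that process or break down the peptides, 2 were called higher and 4 lower in adult than in fetal libraries. The shares of all genes in that comparison were 34.9% higher and 35.5% lower. Pcsk6, a convertase that activates corin, rose at each step, from 59.5 ± 16.9 CPM (SD, n = 3) through 133 ± 4.25 to 263 ± 34.0, by 2.14 ± 0.19 (SE) in all on the log2 scale (edgeR, adjusted p = 1.1e-05). Furin, which cuts pro-BNP, went from 367 ± 8.26 through 304 ± 9.44 to 272 ± 15.8 CPM and fell by 0.43 ± 0.07 from fetal to adult libraries (edgeR, adjusted p = 0.000249). Neprilysin (Mme), which degrades the peptides, was at 30.9 ± 2.79, 17.6 ± 0.583 and 13.1 ± 4.46 CPM and fell by 1.24 ± 0.21 from fetal to adult libraries (edgeR, adjusted p = 0.000476). The insulin-degrading enzyme gene Ide, whose product also cleaves ANP, was at 111 ± 10.6, 106 ± 0.703 and 64.6 ± 5.28 CPM and fell by 0.78 ± 0.09 (edgeR, adjusted p = 3.02e-05).

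The nitric oxide-sensitive cyclases, which make cGMP without a peptide, were highest in neonatal libraries. Of 6 other guanylate cyclase genes 3 were tested: all 3 were called higher in neonatal than in fetal libraries and all 3 lower in adult than in neonatal ones. Among all genes, 18.3% were called higher in the former comparison and 31.8% lower in the latter. Gucy1a1, an alpha subunit (Gucy1a3 in the table), was at 36.6 ± 22.6 CPM (SD, n = 3), 106 ± 9.20 and 9.66 ± 2.52, and fell by 3.45 ± 0.53 (SE) on the log2 scale from neonatal to adult libraries (edgeR, adjusted p = 0.000443). Gucy1b1, the beta subunit (Gucy1b3 in the table), was at 101 ± 43.0, 206 ± 4.0 and 42.5 ± 3.34 CPM and fell by 2.28 ± 0.30 (edgeR, adjusted p = 0.000179). The neonatal to fetal calls of both, at 1.54 and 1.03, were lost when any 1 neonatal library was left out, and that of Gucy1a1 also without the filter on low counts and in a fit to those ages. Mural markers, genes of pericytes and smooth muscle cells, moved the same way: the 7 summed to 1509, 1516 and 720 CPM in the fetal replicates, 2312 to 2388 CPM in neonatal and 278 to 590 CPM in adult libraries. Fetal replicate 3 was the lowest fetal library in that sum and in Gucy1a1, at 10.5 CPM. Of the 7 mural markers 3 were called higher in neonatal than in fetal libraries, and 6 lower in adult than in neonatal ones, with a median log2 fold change of -2.37 in the latter comparison. Their part in the cyclase differences was not tested.

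Among cGMP effectors 1 of 6 tested genes was called higher and 3 lower in adult than in neonatal libraries. The shares of all genes were 31.6% higher and 31.8% lower. Prkg1, the cGMP-dependent kinase, was at 18.8 ± 3.05 CPM (SD, n = 3), 20.1 ± 2.68 and 7.37 ± 0.931, and fell by 1.45 ± 0.17 (SE) on the log2 scale from neonatal to adult libraries (edgeR, adjusted p = 5.75e-05). Irag1 (Mrvi1 in the table), a substrate of that kinase, was at 98.4 ± 34.6, 90.4 ± 2.24 and 38.2 ± 4.10 CPM and fell by 1.24 ± 0.24 (edgeR, adjusted p = 0.00176). The 6 of 7 mural markers called lower over the same step fell beside both genes, and their part was not tested. Rgs2, a G protein regulator that the kinase activates, was at 28.6 ± 1.35, 19.2 ± 1.31 and 132 ± 84.6 CPM and rose by 2.78 ± 0.38 (edgeR, adjusted p = 0.000249). Adult replicate 1 carried that mean, at 230 CPM against 79.9 and 86.3, and without it the rise was 2.11 (edgeR, adjusted p = 6.11e-07). The pacemaker channel gene Hcn4 was at 6.97 ± 0.422 and 3.47 ± 0.519 CPM in fetal and neonatal libraries and had 0 counts in the adult ones, at least 15.5-fold below neonatal libraries at a floor of 3 counts per library. The cardiomyocyte markers fell over the same ages, and their part in the Hcn4 fall was not tested.

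Of 8 phosphodiesterase genes tested, 2 were called higher and 4 lower in adult than in fetal libraries. Of all genes 70.5% were called in that comparison, 34.9% higher and 35.5% lower, so the total called is near the background. Pde5a, which breaks down cGMP, was at 9.97 ± 2.17 CPM (SD, n = 3), 11.8 ± 1.47 and 2.66 ± 0.70, and fell by 2.15 ± 0.24 (SE) on the log2 scale from neonatal to adult libraries (edgeR, adjusted p = 5.54e-05). Pde9a, another cGMP phosphodiesterase, was at 8.91 ± 0.84, 1.28 ± 0.282 and 0.712 ± 0.453 CPM, and fell by 2.80 ± 0.32 already between fetal and neonatal libraries (edgeR, adjusted p = 0.000304). Pde2a, which cGMP stimulates, was at 16.4 ± 5.09, 50.4 ± 1.27 and 49.4 ± 10.6 CPM, and rose by 1.62 ± 0.21 over the same step (edgeR, adjusted p = 0.000654). Pde3b, which cGMP inhibits, was at 13 ± 2.30, 28.1 ± 1.34 and 30.7 ± 9.44 CPM and rose by 1.10 ± 0.20 (edgeR, adjusted p = 0.00339).

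Of 15 regulators known to act on Nppa or Nppb transcription, 2 were called higher and 5 lower in neonatal than in fetal libraries, and 1 higher and 11 lower in adult than in fetal ones. Over all genes 36.3% were called in the former comparison (18.3% higher and 18.0% lower) and 70.5% in the latter (34.9% higher and 35.5% lower). The totals called are thus near the background, but the calls between adult and fetal libraries were mostly lower. The median log2 fold change of the 15 regulators was -1.37 there, where that of all genes was -0.01. Nkx2-5, a cardiac homeobox activator of Nppa, was at 14.6 ± 2.6 CPM (SD, n = 3) in fetal and 4.77 ± 0.975 in neonatal libraries and had 0 counts in adult ones, at least 65.3-fold below fetal and 21.3-fold below neonatal libraries at a floor of 3 counts per library. All 13 cardiomyocyte markers were called lower in each of the 3 comparisons. Their part in the falls of Nkx2-5, Tbx5 and Myocd was not tested. Tbx5, an activator, was at 12.8 ± 2.74, 1.53 ± 0.287 and 0.347 ± 0.109 CPM and fell by 3.07 ± 0.24 (SE) on the log2 scale from fetal to neonatal libraries (edgeR, adjusted p = 4.41e-05). Over the same step Tbx3 fell by 3.27 ± 0.35 and Tbx20 rose by 0.89 ± 0.17 (edgeR, adjusted p = 0.000191 and 0.00373). Myocardin (Myocd), a coactivator of serum response factor, was at 37.5 ± 9.57, 17.7 ± 1.90 and 0.198 ± 0.113 CPM and fell by 7.51 ± 0.35 from fetal to adult libraries (edgeR, adjusted p = 1.36e-07). Hey2 (-3.36), Tbx3 (-3.26), Tbx2 (-2.08) and Rest (-1.37) were also called lower in adult than in fetal libraries. So were Tead1, Mef2a, Tbx20 and Srf, while Nfatc4 (0.33) was called higher. Gata4, whose family's motif stands before both peptide genes, was at 137 ± 31.5, 221 ± 1.45 and 140 ± 11.3 CPM. It rose by 0.69 ± 0.15 and then fell by 0.66 ± 0.15 (edgeR, adjusted p = 0.00732 and 0.00377), while its adult minus fetal value was 0.03 (edgeR, adjusted p = 0.858) with TMM scaling and -0.07 with library size alone.

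**Figure D5:**
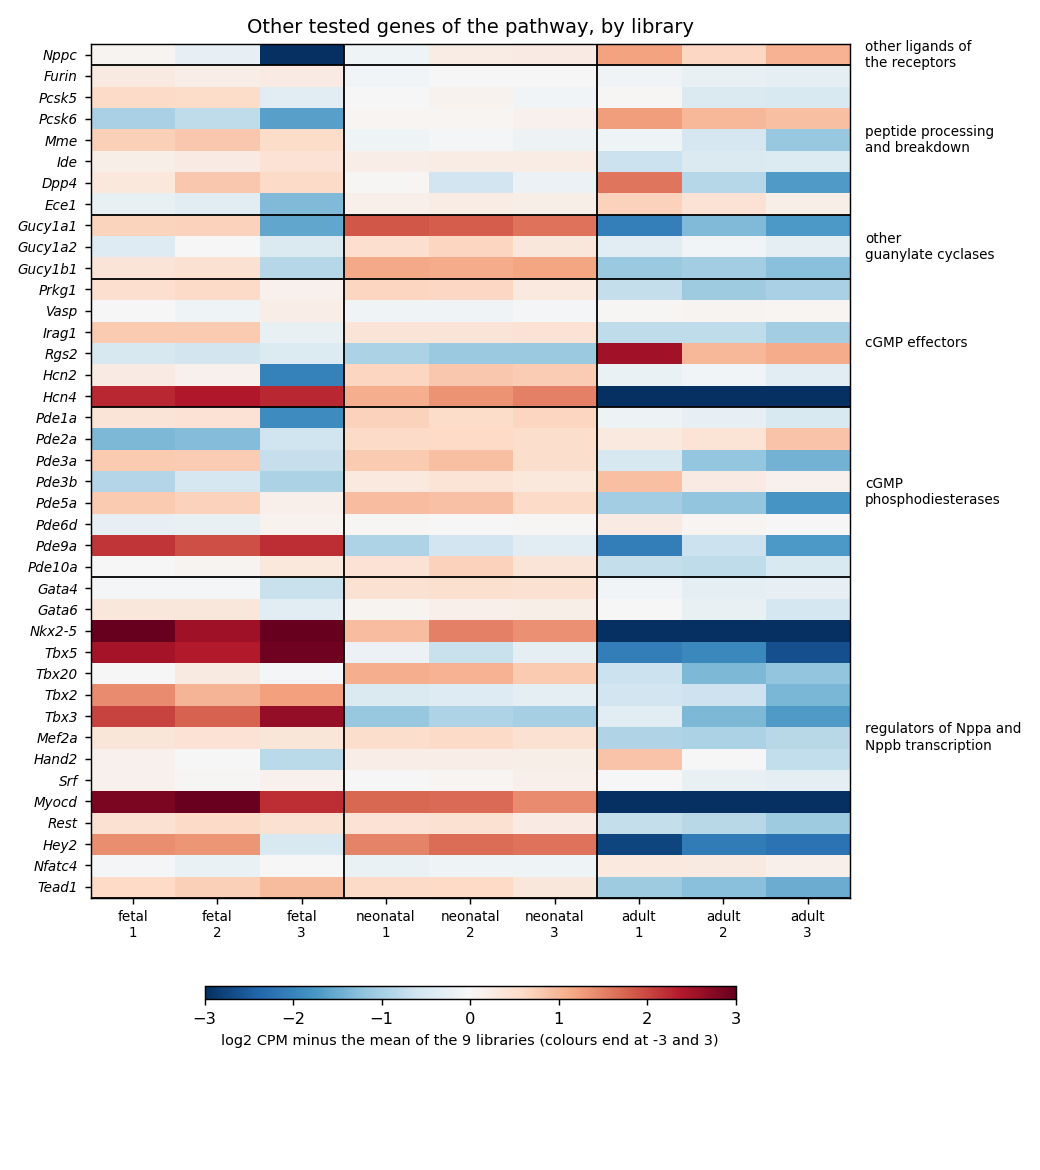
Colours give log2 CPM of the 40 other tested pathway genes in each library, minus the gene's mean over the 9 libraries, with 2 counts added on average before the log; the colour scale ends at -3 and 3. Nkx2-5, Tbx5, Myocd and Hcn4 are darkest red in fetal columns and blue in adult ones, the Gucy1a1 and Gucy1b1 rows are red in neonatal columns, and Pcsk6 goes from blue to red.

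As a description of these 9 libraries, Pearson correlations of log2 CPM were taken between each gene and all others tested; the libraries fall into 3 ages and share depth and cell makeup within an age, so a high value mostly says that 2 genes order the ages alike. Nppa and Nppb correlated at 0.995, Nppa and Npr1 at -0.92, and Npr2 with Nppa at -0.08. The genes most like Nppa were Reg3b (0.998), the cardiac actin gene Actc1 (0.996) and Usp22 (0.996). Those most like Nppb were Cox6a2 (0.999), the heart and skeletal muscle form of a cytochrome c oxidase subunit, Trim72 (0.998), a muscle membrane repair gene, and Grm4 (0.998). Those most like Npr1 were RT1-CE5 (0.999), a class I histocompatibility gene with close paralogs, Pld3 (0.997) and Pnpla7 (0.996). For Npr2 they were Glis2 (0.995), Dkk3 (0.992) and Tpcn1 (0.991), for Npr3 Mrc2 (0.989), Gpc3 (0.986) and Pdia6 (0.976), and for Corin Kif21b (0.990), Creb3 (0.987) and Txlng (0.987). By Spearman's rank correlation many genes tied, 41 of them at the top value for Npr1. Counting ties as equally near, RT1-CE5 for Npr1, Glis2 and Dkk3 for Npr2, and Mrc2 and Pdia6 for Npr3 had fewer than 3 genes ranked above them, and none of the genes named for Nppa, Nppb and Corin did.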

How the data were processed

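The authors' deposited table held whole-number counts of reads per gene for all 9 libraries, made with featureCounts 1.6.3 on an rn6 annotation, per the file headers. The submitters' processing notes also name FastQC, Trimmomatic 0.39, STAR 2.5.2b and DESeq2. The deposited signal values were those counts divided by 1 size factor per library, as checked on the file, and were not tested. Exon length, per the file headers, came from the same table. No counting option for strand is in the header, so overlapping antisense genes cannot be told apart. Columns were matched to samples by label.

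Counts were fitted with edgeR 4.0.16 in R 4.3.3: filterByExpr, TMM scaling, robust quasi-likelihood fit to all 9 libraries with age as the only term, Benjamini-Hochberg adjustment over 11337 genes. Folds use edgeR's prior count, and each SE is the fold change on the log2 scale over the square root of F. Within-library log2 ratios had 0.5 counts added and exact permutation tests, and pooled ratios exact 95% intervals. Alternatives were DESeq2 1.42.0, other scalings, no filter, fits to the ages compared, a replicate block, each library left out, 5 added counts, and Spearman correlation.

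Named genes were the 6 members, genes among the 2 most changed called ones of each pathway list in each direction and comparison, Nppc, Furin, Mme, Prkg1, Pde5a, Gata4 and Nkx2-5 whatever their result, and the 3 most correlated genes per member. All regulators called between adult and fetal libraries were named as well. The members and lists were chosen with earlier results of these data known. The scripts were tested on simulated data.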

Additional observations from a re-analysis of the deposited data

How the results depend on the processing

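Under all settings run, including each library left out, Nppa and Nppb stayed called lower in adult cultures than at both earlier ages and Npr1 stayed called higher. Corin stayed called lower wherever it was tested; it did not pass the filter on low counts in the fit to adult and fetal libraries alone. Of the members' fold changes, 19 alternative values did not keep their call, the rest did, and none changed direction. The members called between neonatal and fetal libraries numbered 1 to 5 with 1 library left out (2 in all), and all genes 2476 to 4679 (4114 in all). Between adult and fetal libraries 3 members were called in a fit to those ages, against 5: Npr3 was not called and Corin was not tested. Library size alone shifted the median of all genes by -0.18 between neonatal and fetal and by -0.12 between adult and fetal libraries, and 29.0% of neonatal to fetal calls were then higher, against 50.4%.

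Further calls came and went. Between neonatal and fetal libraries Nppa was called at -0.84 with library size alone and Npr1 at 0.54 by DESeq2. With 1 library left out, Nppa ranged from -1.0 to -0.49, Npr1 from 0.29 to 0.70, Npr2 from 0.39 to 0.71 and Corin from -1.56 to -0.41. Between adult and neonatal libraries Npr2 was called at -0.26 in a fit to those ages and ranged from -0.30 to -0.23, and Npr3 ranged from -1.24 to -0.45. Between adult and fetal libraries Npr3 was not called at -0.98 in a fit to those ages and ranged from -1.49 to -0.69, and Npr2 from 0.13 to 0.45. The cause was not tested.

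The replicate numbers did not pair the libraries: deviations of same-numbered libraries correlated at -0.06 to 0.05. With the replicate number as a block, 2, 5 and 5 members were called in the 3 comparisons, with Npr3 gained between adult and neonatal libraries at -0.82 (edgeR, adjusted p = 0.0438), and 3713, 6985 and 7801 of all genes.

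Values that changed sign were Prkg1 between neonatal and fetal libraries, from 0.10 to -0.060 with library size alone and to between -0.024 and 0.22 with 1 library left out, and Gata4 between adult and fetal libraries, from 0.03 to -0.065 with library size alone and to between -0.15 and 0.14 with 1 library left out (-0.033 without adult replicate 1); none of these was called. The adult minus fetal ratio of Nppb to cardiomyocyte markers went from -3.71 to 1.91 without Tnnt2, since that gene made up nearly all adult marker counts. Without it 49, 64 and 84 marker counts were left in adult replicates 1, 2 and 3. The adult levels of Nppa, Nppb and Corin rest on 14, 39 and 1 counts, which limits how well their folds are known.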
